A study of Mus musculus with 25 samples.

Results

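Glycolysis and glucose uptake are covered here by 31 mouse genes, chosen by symbol for their part in the pathway and matched to the Ensembl IDs of a gene count table through GENCODE M21. All 31 were present among the 46078 genes of the table, and all 31 were among the 14703 genes with enough counts to be tested. They comprise 2 glucose transporters, 5 genes of hexose entry and phosphoglucomutase, 5 genes of the phosphofructokinase step, 9 genes of lower glycolysis, 4 genes of lactate formation and transport, 5 genes of the pyruvate dehydrogenase step and the regulator Hif1a.

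Total RNA was measured in CD4 T cells that had been sorted from mice of strain C57BL/6NTac with different genotypes at miR-150, a microRNA abundant in resting lymphocytes. The stage was either D7, that is day 7 of EAE (experimental autoimmune encephalomyelitis, in which mice immunized against myelin develop a disease used to model multiple sclerosis), or naive. At day 7 there were 4 libraries of miR-150 knock-out mice (ko), 4 of miR-150 knock-in mice (ki) and 5 of wild-type mice (wt). At the naive stage there were 4 libraries of each genotype, which gave 25 in all. The labels do not describe the knock-in allele, the organ the cells came from, or whether each library stands for a mouse of its own. The p-values therefore measure only the spread between these libraries, which may be technical, and the parts of the induction (antigen, adjuvant and time) cannot be told apart.

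The deepest library had 49489134 counts, the shallowest 6024043 and the median library 16312725, and the naive wild-type libraries were the shallowest group at 6024043 to 9351180. The 31 genes together received 12763 to 95157 counts per library and summed to 1908 to 2160.04 CPM, the count relative to the TMM-scaled library total. Mir150 had 0 counts in all 8 knock-out libraries and 105 to 743 counts in the other libraries. Scaled to depth, Mir150 was at 9.07 to 29.20 CPM in day 7 knock-in and 12.34 to 25.63 CPM in day 7 wild-type libraries. In naive libraries it was at 12.86 to 16.23 CPM in the knock-in and 14.42 to 24.47 CPM in the wild type. The knock-in and wild-type ranges thus overlapped at both stages. Summed levels of 7 CD4 T cell markers were 2099 to 2407 CPM. In each library 2 CD8 genes summed to between 6.75 and 21.4 CPM, 3 B cell genes to between 0.17 and 9.80 CPM, 5 myeloid genes to between 3.11 and 16.9 CPM, and 6 red cell genes to between 0 and 10.3 CPM, and 2 platelet genes were at 0. Replicate 3 of the day 7 knock-out group was the deepest library and had the highest share of counts in genes of ribosomal RNA or alike. That share was 21.1%, against 15.1% to 19.9% in the other libraries.

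Glycolysis turns glucose into pyruvate in the cytosol. Glucose enters through carriers of the Slc2a family, is trapped as a phosphate by hexokinase, is committed at the phosphofructokinase step, and yields pyruvate through a chain of shared enzymes. Pyruvate is either reduced to lactate, which leaves the cell through Slc16a carriers, or is passed to mitochondria through the pyruvate dehydrogenase complex, whose kinases (Pdk) switch it off. Resting T cells use little glucose, whereas T cells that are activated and divide take up more of it and release lactate. Hif1a, the oxygen-regulated transcription factor, induces many of these genes and favours Th17 cells, the helper cells known for their part in EAE.

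The promoters were read to see what the genes share in sequence before their levels are described. RefSeq's promoter table (GRCm38.p6) had an entry for 30 of the 31 genes, each from 250 bases before to 50 bases after a transcription start, and none for Slc2a3. The core of the hypoxia response element that Hif1a binds reads ACGTG or GCGTG. The first form, ACGTG, stood on either strand in 17 of the 30 (56.7%), against 19.6% of all 32851 entries and 20.9% of the 21263 entries of protein-coding genes. GCGTG stood in 16 of the 30 (53.3%), against 32.4% of all entries and 38.5% of those of protein-coding genes. Either form stood in 25 of the 30 (83.3%), against 43.8% of all entries and 49.3% of those of protein-coding genes. The longer word CACGTG, an E-box that also contains ACGTG, stood in 5 of the 30 (16.7%), against 7.2% of all entries. The median GC content was 62.2% in the 30 promoters and 56.3% in those of protein-coding genes. A match is a run of letters and says nothing of binding. The 250 bases before the start are given for Pdk1, Eno1 and Gapdh, the genes with an entry whose RNA changed by day 7 in the mean of the 3 genotypes. They are also given for Slc2a1, whose RNA was lower in day 7 knock-out than in day 7 knock-in cells. That comparison was added after seeing the data, and its result for Slc2a1 was lost in several of the fits described below. The last is Ldha, which held the most ACGTG matches. Capitals mark ACGTG or GCGTG on either strand, with any CACGTG around it.
Pdk1 (chr2:71872974-71873223, +): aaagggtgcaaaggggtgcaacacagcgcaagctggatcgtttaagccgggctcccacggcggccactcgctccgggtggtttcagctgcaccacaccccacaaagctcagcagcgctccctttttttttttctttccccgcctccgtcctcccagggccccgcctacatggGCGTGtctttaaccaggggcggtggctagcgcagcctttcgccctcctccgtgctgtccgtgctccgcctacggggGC
Eno1 (chr4:150236458-150236707, +): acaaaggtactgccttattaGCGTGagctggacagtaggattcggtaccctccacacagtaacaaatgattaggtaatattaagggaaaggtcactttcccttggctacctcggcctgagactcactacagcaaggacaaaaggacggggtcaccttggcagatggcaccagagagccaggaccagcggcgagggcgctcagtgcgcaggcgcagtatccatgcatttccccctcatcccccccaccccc
Gapdh (chr6:125165774-125166023, -): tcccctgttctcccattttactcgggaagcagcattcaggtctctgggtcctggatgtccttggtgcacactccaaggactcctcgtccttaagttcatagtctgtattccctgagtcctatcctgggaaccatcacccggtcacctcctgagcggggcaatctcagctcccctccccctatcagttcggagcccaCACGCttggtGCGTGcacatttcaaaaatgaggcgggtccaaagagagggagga
Slc2a1 (chr4:119108495-119108744, +): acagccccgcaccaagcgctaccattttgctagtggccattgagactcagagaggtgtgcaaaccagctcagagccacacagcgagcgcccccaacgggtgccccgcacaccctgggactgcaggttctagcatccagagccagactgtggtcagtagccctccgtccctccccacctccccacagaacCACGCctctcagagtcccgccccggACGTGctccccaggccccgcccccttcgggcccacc
Ldha (chr7:46845554-46845803, +): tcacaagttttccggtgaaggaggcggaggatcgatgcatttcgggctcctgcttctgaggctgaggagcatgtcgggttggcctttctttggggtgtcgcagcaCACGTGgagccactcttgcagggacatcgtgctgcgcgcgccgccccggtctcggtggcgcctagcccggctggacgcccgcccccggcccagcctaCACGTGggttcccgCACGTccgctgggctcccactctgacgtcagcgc
Pdk1 and Eno1 held GCGTG and no ACGTG, and the last capitals of Pdk1 open a match that runs across the start. Gapdh held GCGTG before the start and ACGTG at base 43 after it, beyond the bases shown. In Slc2a1 the ACGTG match began 36 bases before the start. In Ldha 5 ACGTG matches were counted, since each of its 2 CACGTG words reads as ACGTG on both strands. The start of the Ldha entry lay 4329 bases inside the GENCODE gene, and that of Gapdh 694 bases inside it. Those of Pdk1, Eno1 and Slc2a1 lay 0, 13 and 34 bases from the GENCODE start.

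Levels between genes were compared as CPM per kb of annotated exon, averaged over the 25 libraries. The length joins all annotated exons of a gene, for instance 4133 bases for Gapdh and 7779 for Pdk1. It can exceed that of the transcripts present in these cells, which were not determined. The order of the genes below holds for this measure only. The highest were Pkm, the last enzyme of glycolysis, at 49.004 CPM per kb, Ldha, which reduces pyruvate to lactate, at 44.6, Eno1, the main enolase, at 39.5, and Aldoa, the main aldolase, at 38.9 CPM per kb. Next came Pdk1, a kinase that inhibits pyruvate dehydrogenase, at 32.4 CPM per kb, above its substrate subunit Pdha1 at 27.4 and above Gapdh at 25.9 CPM per kb. The glucose transporters Slc2a1 and Slc2a3 lay at 6.75 and 5.12 CPM per kb. At the low end were Hk2, the inducible hexokinase, at 0.317, Slc16a3, a lactate exporter, at 0.265, and Aldoc, a minor aldolase, at 0.222 CPM per kb. The other 19 genes lay between 1.83 CPM per kb, for Pfkfb4, and 22.5 CPM per kb, for Gpi1. The ranges over the 25 libraries overlapped for all neighbours in the order of the 31 genes except Pgk1 above Hk1 and Pfkfb4 above Hk2.

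**Figure D1:**
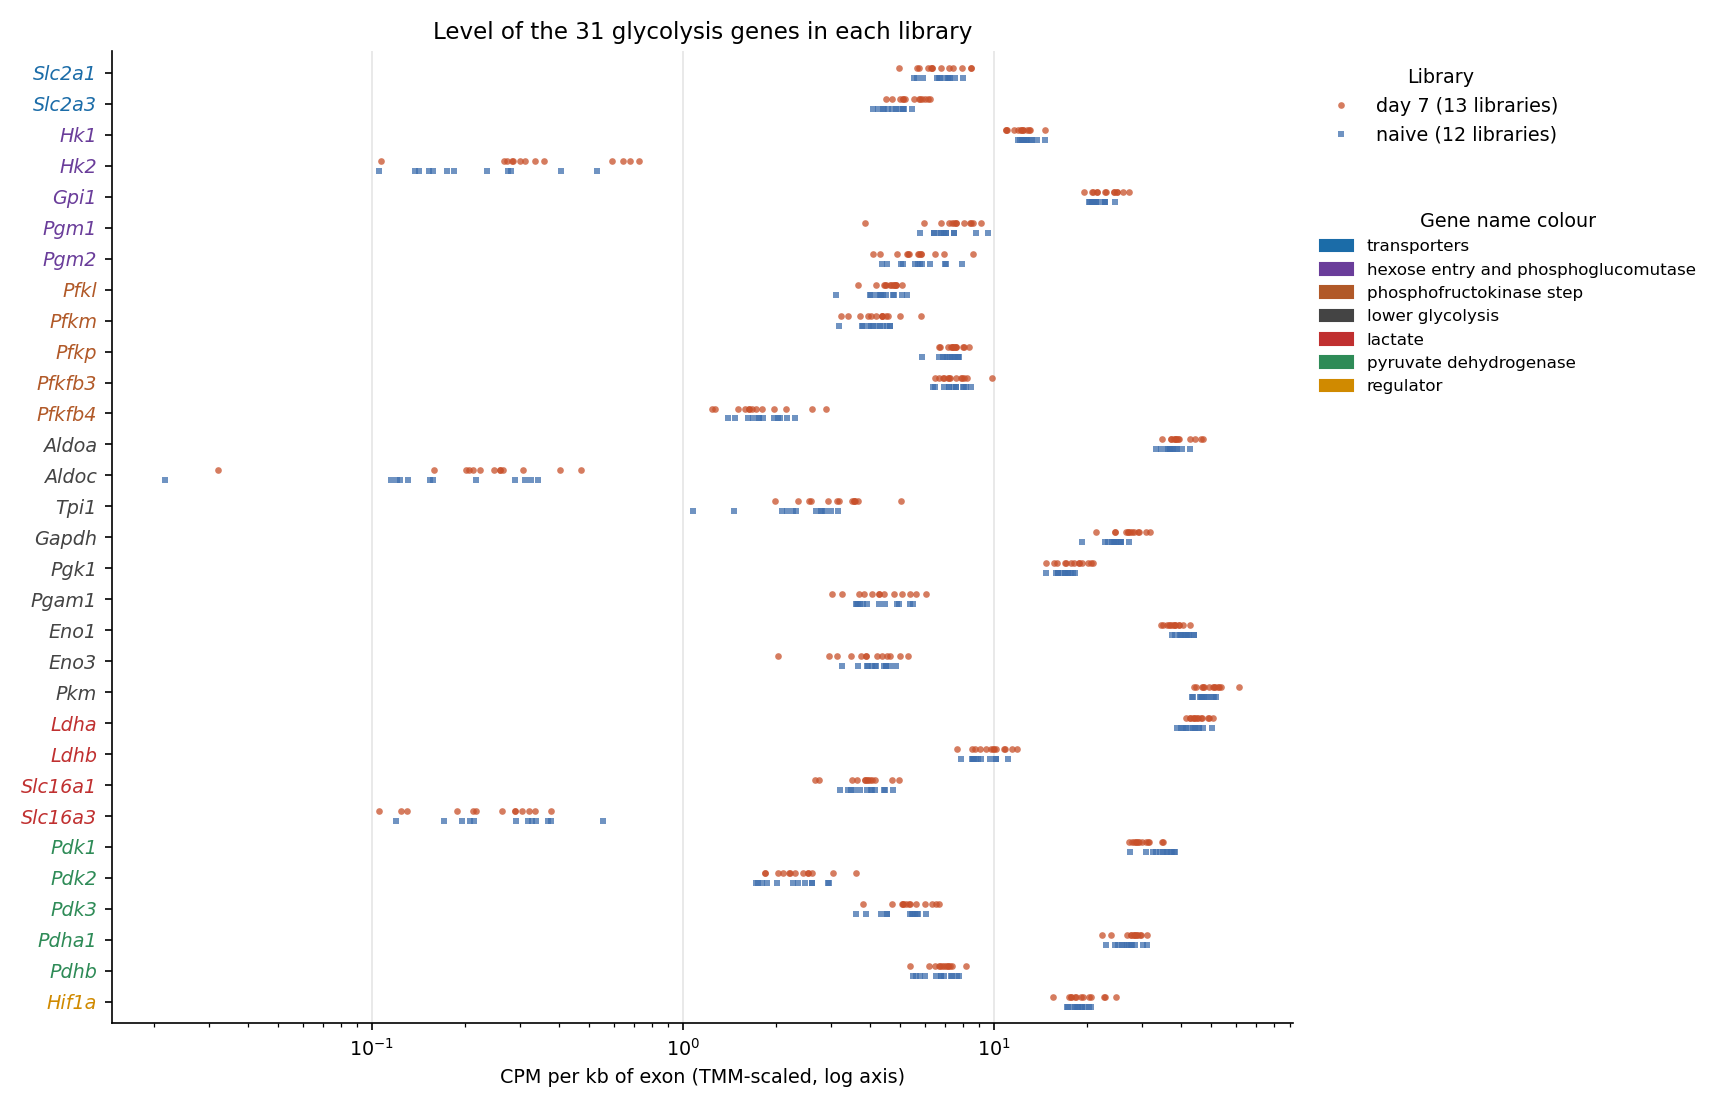
Level of each of the 31 genes in CPM per kb of exon (log axis), with 1 point per library, 13 at day 7 (circles, upper row of each gene) and 12 naive (squares, lower row). Gene names are coloured by role. Pkm, Ldha, Eno1 and Aldoa sit at the right, Hk2, Slc16a3 and Aldoc at the left, and for each of the 31 genes the day 7 and naive points overlap.

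Isozyme use was summarised as the share of 1 gene in the summed CPM per kb of its family members in the list. These shares depend on the same joined exon lengths. Hk1, the constitutive hexokinase, made up 97.5% ± 1.42 (SD, n = 25 libraries) of Hk1 and Hk2, and Aldoa made up 99.4% ± 0.276 (SD, n = 25) of the aldolases. Eno1 held 90.7% ± 1.63 (SD, n = 25) of Eno1 and Eno3, and Ldha held 82.4% ± 2.05 (SD, n = 25) of Ldha and Ldhb. Slc16a1, the lactate carrier of most tissues, held 93.5% ± 2.601 (SD, n = 25) of the lactate carriers. The list was thus read mostly through 1 isozyme at these steps, and more evenly at others. Pfkp, Pfkl and Pfkm, the platelet, liver and muscle phosphofructokinases, shared their step at 45.7%, 28.1% and 26.2%. Pfkfb3, which makes the activator of phosphofructokinase, held 80.3% ± 3.81 (SD, n = 25) of Pfkfb3 and Pfkfb4. Slc2a3, the high-affinity transporter of lymphocytes and neurons, held 43.2% ± 4.31 (SD, n = 25) of the pair with Slc2a1. This last share averaged 48.6% ± 5.13 (SD, n = 4) in day 7 knock-out libraries and 40.3% ± 2.18 (SD, n = 4) in day 7 knock-in libraries. In those of the wild type at day 7 it averaged 45.8% ± 2.93 (SD, n = 5). The knock-out and knock-in ranges did not overlap at day 7, but did in naive cells (40.3% to 47.5% against 35.7% to 42.1%). In these day 7 knock-out and knock-in groups Slc2a3 itself averaged 39.8 and 39.4 CPM, and Slc2a1 20.3 and 28.2 CPM. No background over all genes was taken for such shares, and this one is named after its values were seen.

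Among the 18 genes of the list with a mean of at least 20 CPM, the coefficient of variation over all 25 libraries had a median of 9.81%, against 9.86% for the 5950 tested genes with such a mean. It ran from 6.70% for Eno1 to 16.3% for Pgm1, a phosphoglucomutase. Between groups, the highest and lowest group means of Hif1a differed 1.07-fold and those of Ldha 1.104-fold, while those of Slc2a1 differed 1.39-fold. Near-identical annotated copies make some values uncertain. Gapdh has 77 copies of at least 95% identity, of which 73 were in the table with 3.78 CPM in sum beside 107 CPM for Gapdh itself. Eno1 has 3 with 1.204 CPM beside 212.4 CPM. Pgk1 and Pgam1 have copies of 100% identity, and Tpi1 has a copy of 97.7%. How reads that fit a gene and its copy alike were counted is not given. The CPM of the copies therefore cannot show how many reads the genes lost. In all, 10 of the 31 genes had such a copy, and the exons of 11 overlapped a gene on the opposite strand, among them Pfkm, Pfkp and Gapdh. The strand setting of the counting was not given in the sources used here. Pdk1, Slc2a3 and Slc16a1 had no copy and no overlap.

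Day 7 and naive cells were compared within each genotype, to see how the genes stood once EAE had been induced. No gene of the list passed the edgeR test in knock-out cells, in knock-in cells or in wild-type cells, and the log2 fold changes were within 0.3 of 0 for 25, 27 and 27 of the 31 genes in these genotypes. Averaged over the 3 genotypes, the transporter Slc2a3 and the enzyme Gapdh rose by day 7 and the kinase Pdk1 and the enolase Eno1 fell, all by less than 0.3 on the log2 scale. In bulk RNA, fewer cells of a type and less RNA per cell cannot be told apart.

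In knock-out cells 0 of 31 genes were called at an adjusted p under 0.05, against 0.408% of all tested genes. At an unadjusted p under 0.05 there were 7 of 31, against 12.8% of all tested genes, and DESeq2 and limma voom called 0. For knock-in cells the count was 0 of 31 with 2.02% of all tested genes called, 4 of 31 at an unadjusted p under 0.05 against 15.1%, 0 by DESeq2 and 1, Pdk1, by limma voom. In wild-type cells it was 0 of 31 with 2.14% of all tested genes called, 4 of 31 at an unadjusted p under 0.05 against 15.1%, 1 by DESeq2 (Aldoa) and 1 by limma voom (Pdk1). The median log2 fold change of the 31 genes was 0.048 in knock-out, 0.028 in knock-in and 0.11 in wild-type cells, while that of all tested genes lay between -0.0027 and 0.0087. A positive fold change was seen for 17, 21 and 24 of the 31 in these genotypes. The 95% interval lay within 0.5 of 0 on the log2 scale for 20 genes in knock-out, 23 in knock-in and 25 in wild-type cells, so larger changes of these genes are outside their intervals.

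Over the mean of the 3 genotypes, 4 of 31 genes were called (12.9%), against 11.2% of all tested genes, a share near the background. Higher at day 7 were 2 of 31, against 6.16% of all tested genes, and lower were 2 of 31, against 5.06%. At an unadjusted p under 0.05 there were 8 of 31, against 24.4% of all tested genes. DESeq2 called 5 and limma voom 4. The dividing-cell gene Mki67 also rose by day 7 in this comparison, at 13.6 to 246 CPM in the 13 day 7 libraries against 14.3 to 67.2 CPM in the 12 naive ones. Genes of ribosomal RNA or alike took 16.6% to 21.1% of counts at day 7 against 15.1% to 18.2% in naive libraries. Their part in the results was not tested.

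**Figure D2:**
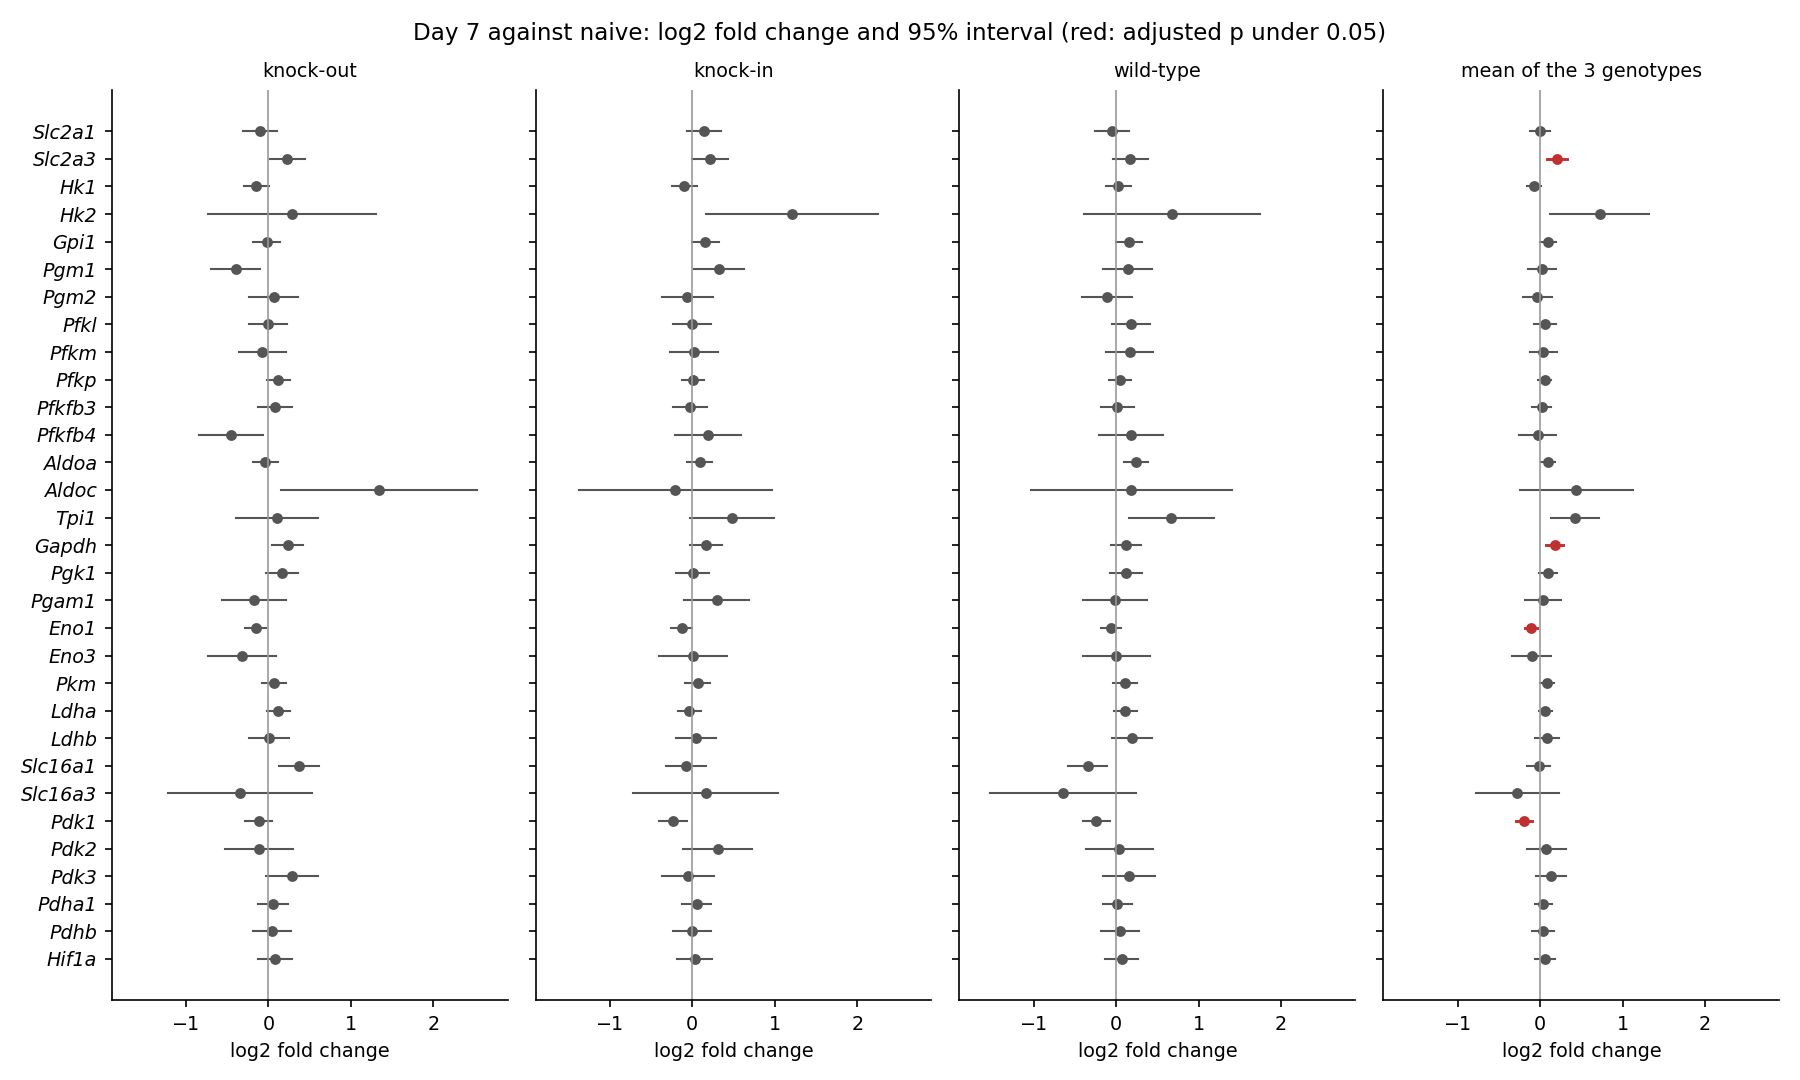
Log2 fold change of day 7 against naive cells for the 31 genes (points) with its 95% interval (lines), in knock-out, knock-in and wild-type cells and for the mean of the 3 genotypes, from the edgeR model. Genes with an adjusted p under 0.05 are red. Only Slc2a3, Gapdh, Eno1 and Pdk1 are red, all in the panel of the mean, and the widest intervals belong to the low-count genes Hk2, Aldoc and Slc16a3.

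Slc2a3 (ENSMUSG00000003153, chromosome 6, 122727809 to 122801640, minus strand in mm10), 1 of the 2 transporters, had 45.1, 36.99, 44.7 and 32.6 CPM in day 7 knock-out cells, against 37.1, 34.1, 33.1 and 32.1 CPM in naive knock-out cells. It had 41.8, 42.7, 36.1 and 36.9 CPM in day 7 knock-in cells, against 35.6, 32.02, 29.6 and 39.5 CPM in naive knock-in cells. In the wild type, Slc2a3 had 43.6, 41.96, 34.2, 40.2 and 37.7 CPM in day 7 wild-type cells, against 37.05, 35.2, 30.8 and 37.2 CPM in naive wild-type cells. The day 7 libraries were higher on average in each genotype, and the ranges overlapped in all 3. The log2 fold changes were 0.23 in knock-out, 0.21 in knock-in and 0.17 in wild-type cells, and their mean was 0.20 (SE 0.061, adjusted p = 0.0269). The call was lost without day 7 knock-out replicate 1 (adjusted p = 0.0563), day 7 knock-in replicate 1 (0.0531), naive knock-in replicate 3 (0.0594) or naive wild-type replicate 3 (0.0592), and held without day 7 knock-out replicate 3 (0.0480).

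Gapdh (ENSMUSG00000057666, chromosome 6, 125161715 to 125166467, minus strand), the dehydrogenase of the middle of the pathway that is often used as a reference gene, had 111, 128, 102 and 110.2 CPM in day 7 knock-out cells, against 102, 106, 79.8 and 94.3 CPM in naive knock-out cells. Knock-in values of Gapdh were 132, 101, 117 and 121 CPM in day 7 knock-in cells, against 99.5, 106, 112 and 101 CPM in naive knock-in cells. Wild-type values of Gapdh were 113, 120.2, 115, 88.2 and 111 CPM in day 7 wild-type cells, against 100.5, 101, 105 and 96.5 CPM in naive wild-type cells. The groups overlapped in each genotype, and in the wild type replicate 4 at day 7 was below all naive libraries. The log2 fold changes were 0.24, 0.17 and 0.12 in knock-out, knock-in and wild-type cells, with a mean of 0.17 (SE 0.053, adjusted p = 0.0304). Gapdh was no longer called without day 7 knock-out replicate 2 (adjusted p = 0.0556), day 7 knock-in replicate 1 (0.0694), naive knock-in replicate 1 (0.0568) or 4 (0.0542), or naive wild-type replicate 4 (0.0543), and was called without day 7 knock-out replicate 3 (0.0193).

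Pdk1 (ENSMUSG00000006494, chromosome 2, 71873224 to 71903858, plus strand), the pyruvate dehydrogenase kinase with the most RNA here, had 246, 220.7, 233 and 217.2 CPM in day 7 knock-out cells, against 279.8, 258, 213.7 and 241 CPM in naive knock-out cells. The knock-in libraries gave 223.1, 245, 270.3 and 226 CPM in day 7 knock-in cells, against 296, 298, 266 and 273 CPM in naive knock-in cells. The wild-type libraries gave 223.2, 228, 211.5, 273 and 241 CPM in day 7 wild-type cells, against 291, 254, 279 and 288 CPM in naive wild-type cells. Day 7 values were the lower ones on average in each genotype, and the naive range held 4 of 4 day 7 libraries in knock-out, 1 of 4 in knock-in and 1 of 5 in wild-type cells. The log2 fold changes of Pdk1 were -0.12 (adjusted p = 0.585) in knock-out, -0.23 (adjusted p = 0.137) in knock-in and -0.24 (adjusted p = 0.108) in wild-type cells. Pdk1 fell by 0.20 on the log2 scale in the mean of the 3 genotypes (SE 0.046, 95% interval -0.29 to -0.10, adjusted p = 0.00558). It was called in every fit that left out 1 of the 25 libraries, with adjusted p between 0.00164 and 0.0150, and 0.00950 without day 7 knock-out replicate 3. Its relatives Pdk2 and Pdk3 had mean log2 fold changes of 0.078 (adjusted p = 0.744) and 0.13 (adjusted p = 0.407). The subunits of the complex that these kinases act on, Pdha1 and Pdhb, had 0.041 (adjusted p = 0.672) and 0.031 (adjusted p = 0.824).

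Eno1 (ENSMUSG00000063524, chromosome 4, 150236721 to 150248879, plus strand), the main enolase, had 206.7, 195, 205.1 and 212.5 CPM in day 7 knock-out cells, against 221.5, 226, 236 and 226 CPM in naive knock-out cells. In knock-in libraries Eno1 had 186, 231, 198 and 188 CPM in day 7 knock-in cells, against 200.8, 237, 223.966 and 216.2 CPM in naive knock-in cells. In wild-type libraries Eno1 had 198, 205.960, 201.5, 212.9 and 218.998 CPM in day 7 wild-type cells, against 206.3, 228, 214.3 and 215.7 CPM in naive wild-type cells. The 4 day 7 knock-out libraries were all below the 4 naive ones, and the groups overlapped in knock-in and wild-type cells. Libraries did not overlap downwards in knock-out cells for 1 of 31 genes, Eno1, against 2.64% of all tested genes. The log2 fold changes of Eno1 were -0.15, -0.13 and -0.059 in knock-out, knock-in and wild-type cells, and the mean was -0.11 (SE 0.036, adjusted p = 0.0374). Of the 4 calls this was lost in the most fits, namely with no filter on low counts (adjusted p = 0.0836), with a stricter filter (0.0504) and without mitochondrial, ribosomal RNA and haemoglobin genes (0.0523). It was also lost in 14 of the 25 fits that left out 1 library, with adjusted p up to 0.0812, and 0.0640 without day 7 knock-out replicate 3. These were the fits without replicate 2 or 3 of day 7 knock-out, 1, 3 or 4 of day 7 knock-in, 1 or 3 of day 7 wild-type, 2 or 3 of naive knock-out, 2 or 3 of naive knock-in, or 2, 3 or 4 of naive wild-type cells.

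**Figure D3:**
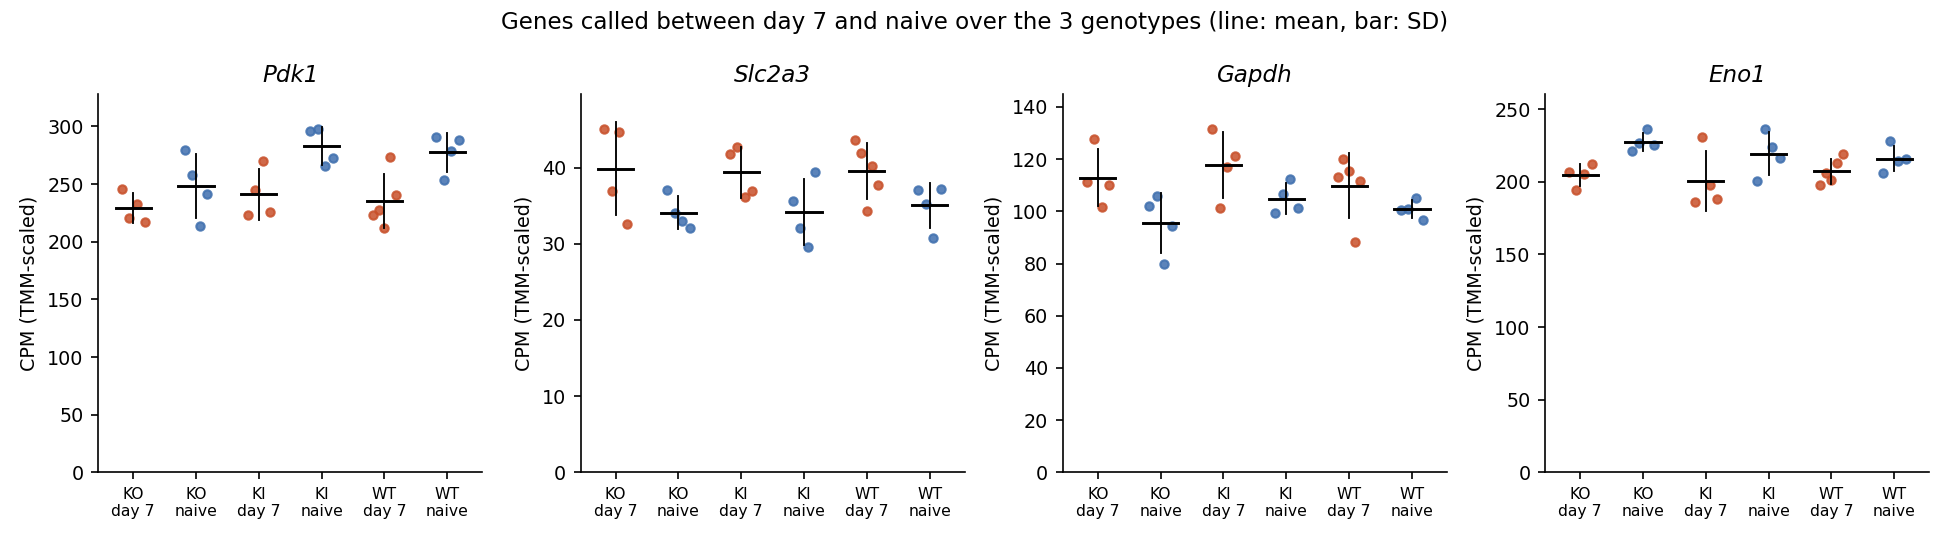
CPM (TMM-scaled) of Pdk1, Slc2a3, Gapdh and Eno1 in each library, by genotype (KO, KI, WT) and stage, with day 7 left of naive. Points are libraries, the line is the group mean and the bar the SD (n = 4, and 5 for day 7 wild-type). Pdk1 averages 229 to 241 CPM in the day 7 groups and 248 to 283 CPM in the naive groups, and Slc2a3 averages 39.4 to 39.8 CPM at day 7 and 34.1 to 35.1 CPM in naive cells.

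Of the landmark genes that the rule for named genes lists, Slc2a3 passed in the mean of the 3 genotypes, as given above. The others follow here and did not pass the edgeR test between day 7 and naive cells. Slc2a1, the transporter that activated T cells bring to their surface, had 17.4, 21.6, 22.2 and 19.9 CPM in day 7 knock-out cells, against 19.9, 23.4, 20.7 and 23.002 CPM in naive knock-out cells. It had 27.8, 29.6, 29.6 and 25.9 CPM in day 7 knock-in cells, against 25.2, 27.95, 23.5 and 26.3 CPM in naive knock-in cells. In wild-type cells Slc2a1 had 25.2, 20.1, 22.1, 22.2 and 23.7 CPM in day 7 wild-type cells, against 25.4, 24.98, 19.4 and 24.4 CPM in naive wild-type cells. All 3 pairs overlapped. Its log2 fold changes were -0.10 (adjusted p = 0.722) in knock-out, 0.14 (adjusted p = 0.574) in knock-in and -0.048 (adjusted p = 0.884) in wild-type cells, and the mean, -0.0028, had a 95% interval of -0.12 to 0.12 and a sign that turned to positive with DESeq2's size factors in edgeR, with DESeq2 itself, with a stricter filter and without mitochondrial, ribosomal RNA and haemoglobin genes (0.0038 to 0.0098).

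Hk1 had 124, 98.9, 93.5 and 94.4 CPM in day 7 knock-out cells, against 112, 125, 114 and 105 CPM in naive knock-out cells. In the knock-in, Hk1 had 105, 106, 93.6 and 102 CPM in day 7 knock-in cells, against 109, 106, 104 and 117 CPM in naive knock-in cells, and its wild-type values were 112, 111, 106, 104 and 109 CPM at day 7 and 108, 107, 102 and 108 CPM in naive cells. The groups overlapped in all 3 genotypes, and the log2 fold changes were -0.15 (adjusted p = 0.407), -0.10 (adjusted p = 0.599) and 0.028 (adjusted p = 0.909) in knock-out, knock-in and wild-type cells. Hk2, which binds mitochondria and is induced on activation, was low, with 6 to 141 counts per library. It had 1.79, 4.05, 0.642 and 1.63 CPM in day 7 knock-out cells, against 0.629, 0.85, 1.63 and 3.17 CPM in naive knock-out cells. The values of Hk2 were 3.83, 2.001, 1.69 and 4.32 CPM in day 7 knock-in cells, against 1.3996, 1.68, 1.04 and 0.911 CPM in naive knock-in cells, which did not overlap. In wild-type cells they were 2.14, 3.54, 1.59, 1.68 and 1.86 CPM at day 7 and 1.099, 2.42, 0.941 and 0.825 CPM when naive, and these overlapped. Hk2 had the highest mean fold change of the list, 0.72 (SE 0.29, adjusted p = 0.114), with 0.28 in knock-out, 1.21 in knock-in and 0.68 in wild-type cells, and a 95% interval of 0.12 to 1.33. Hk2 was called without naive knock-out replicate 4 (0.94, adjusted p = 0.0318) and Hk1 without day 7 knock-out replicate 1 (-0.11, adjusted p = 0.0465), and the sign of Hk2 in knock-out cells turned without day 7 knock-out replicate 2 (-0.27).

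Pkm, the pyruvate kinase, had 255, 236, 234 and 238 CPM in day 7 knock-out cells, against 233, 237, 231 and 216.6 CPM in naive knock-out cells. In knock-in cells Pkm had 309, 257, 223.3 and 266 CPM at day 7 and 259, 253, 255 and 242 CPM when naive, and in wild-type cells 269, 246, 263, 221.2 and 253 CPM at day 7 and 244, 234, 232 and 219.1 CPM when naive. Its log2 fold changes were 0.068, 0.064 and 0.11 in knock-out, knock-in and wild-type cells, with a mean of 0.08 (SE 0.041, adjusted p = 0.228) and overlapping groups throughout. Gene counts do not separate the M1 and M2 splice forms of Pkm. Ldha had 147, 149.7, 164 and 153 CPM in day 7 knock-out cells, against 129, 145, 144 and 147 CPM in naive knock-out cells, where all 4 day 7 values were above the naive ones. For the other genotypes Ldha had 168, 141, 137 and 150.3 CPM in day 7 and 139, 156, 151 and 167 CPM in naive knock-in cells, and 155, 146, 162, 145 and 141 CPM in day 7 and 134, 151, 133 and 137 CPM in naive wild-type cells, with overlap in both. The mean log2 fold change of Ldha was 0.066 (SE 0.04, adjusted p = 0.329).

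Slc16a3, the lactate exporter of strongly glycolytic cells, was low, with 1.79, 0.659, 1.39 and 0.69 CPM in day 7 knock-out cells, against 1.55, 0.638, 1.70 and 1.96 CPM in naive knock-out cells. It had 1.70, 2.001, 1.54 and 1.12 CPM in day 7 and 1.74, 1.04, 1.80 and 0.911 CPM in naive knock-in cells, and 1.15, 1.54, 1.001, 0.561 and 1.62 CPM in day 7 and 1.099, 2.95, 1.9997 and 1.13 CPM in naive wild-type cells. All pairs overlapped, and the log2 fold changes were -0.34 (adjusted p = 0.785), 0.16 (adjusted p = 0.919) and -0.64 (adjusted p = 0.528) in knock-out, knock-in and wild-type cells. Hif1a had 113, 134, 104 and 115 CPM in day 7 knock-out cells, against 109.8, 113, 108 and 109.5 CPM in naive knock-out cells. Its values were 145, 91.6, 108 and 121 CPM in day 7 and 110.5, 122, 119 and 106 CPM in naive knock-in cells, and 108, 134, 119.6, 105 and 103 CPM in day 7 and 116, 102, 102 and 114 CPM in naive wild-type cells. Hif1a overlapped between stages in each genotype, with a mean log2 fold change of 0.058 (SE 0.058, adjusted p = 0.595). Hif1a is controlled mainly through the stability of its protein, which was not measured.

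By role, the lower glycolysis genes had positive fold changes for 5 of 9 in knock-out, 7 of 9 in knock-in and 7 of 9 in wild-type cells, with medians of 0.068, 0.064 and 0.12. All 5 genes of the phosphofructokinase step were positive in wild-type cells (median 0.16), against 2 of 5 in knock-out (-0.0029) and 4 of 5 in knock-in cells (0.0068), and none was called. Values of Aldoa and Tpi1, outside the naming rule, are given because DESeq2 called them, a choice made after the values were seen. Aldoa in wild-type cells had 125, 112, 137, 114 and 115 CPM at day 7 and 100.5, 106, 97.05 and 105 CPM when naive, which did not overlap, a log2 fold change of 0.24 (SE 0.073, adjusted p = 0.0838) that DESeq2 called (0.0469). Tpi1, triose phosphate isomerase, had a mean log2 fold change of 0.42 (SE 0.14, adjusted p = 0.0564), also called by DESeq2 (0.0290), with few counts at 5.60 to 9.64 CPM per group.

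Day 7 and naive libraries did not overlap upwards for 3 of 31 genes in knock-out cells (Aldoc, Slc16a1 and Ldha), against 2.43% of all tested genes. In knock-in cells these were 2 of 31 (Hk2 and Pgm1), against 4.70%, and in wild-type cells 2 of 31 (Pfkl and Aldoa), against 2.94%. The gene sets named in these 3 genotypes had no gene in common. These groups are small, and the pairs that did not overlap carried adjusted p of 0.0838 or more within a genotype. Aldoc had only 1 to 33 counts in the knock-out libraries.

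Knock-out and knock-in cells were set against wild-type cells at each stage, to ask whether miR-150 affects these genes. No gene of the list was called in any of the 4 comparisons with wild-type cells. In knock-out against wild-type cells at day 7 the count was 0 of 31, with 0.0476% of all tested genes called, and 5 of 31 had an unadjusted p under 0.05, against 9.45%. In naive cells it was 0 of 31, with 0.0204% of all tested genes called, and 2 of 31 at an unadjusted p under 0.05, against 7.55%. Knock-in against wild-type cells gave 0 of 31 at day 7, with 0% of all tested genes called, and 1 of 31 at an unadjusted p under 0.05, against 4.65%. In naive knock-in cells it gave 0 of 31, with 0.0136% called, and 0 of 31 at an unadjusted p under 0.05, against 2.26%. DESeq2 and limma voom called 0 of 31 in all 4.

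The median log2 fold changes of the list were -0.069 in day 7 and -0.00095 in naive knock-out against wild-type cells, and 0.015 and 0.035 in knock-in against wild-type cells at these stages. Fold changes were within 0.3 of 0 for 25, 28, 28 and 29 of the 31 in these comparisons. In day 7 knock-out cells 22 of 31 had a negative fold change against wild-type cells, among them 4 of 5 at the phosphofructokinase step (median -0.11) and 5 of 5 of the pyruvate dehydrogenase step (median -0.043). The day 7 comparisons share the 5 wild-type libraries, and the naive ones share the 4 naive wild-type libraries. The 5 genes at an unadjusted p under 0.05 in day 7 knock-out against wild-type cells were Pfkfb4 at -0.50 (adjusted p = 0.34), Pgm1 at -0.35 (adjusted p = 0.398), Ldhb at -0.27 (adjusted p = 0.411), Pgm2 at 0.37 (adjusted p = 0.357) and Slc16a1 at 0.37 (adjusted p = 0.227), named after their values were seen.

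**Figure D4:**
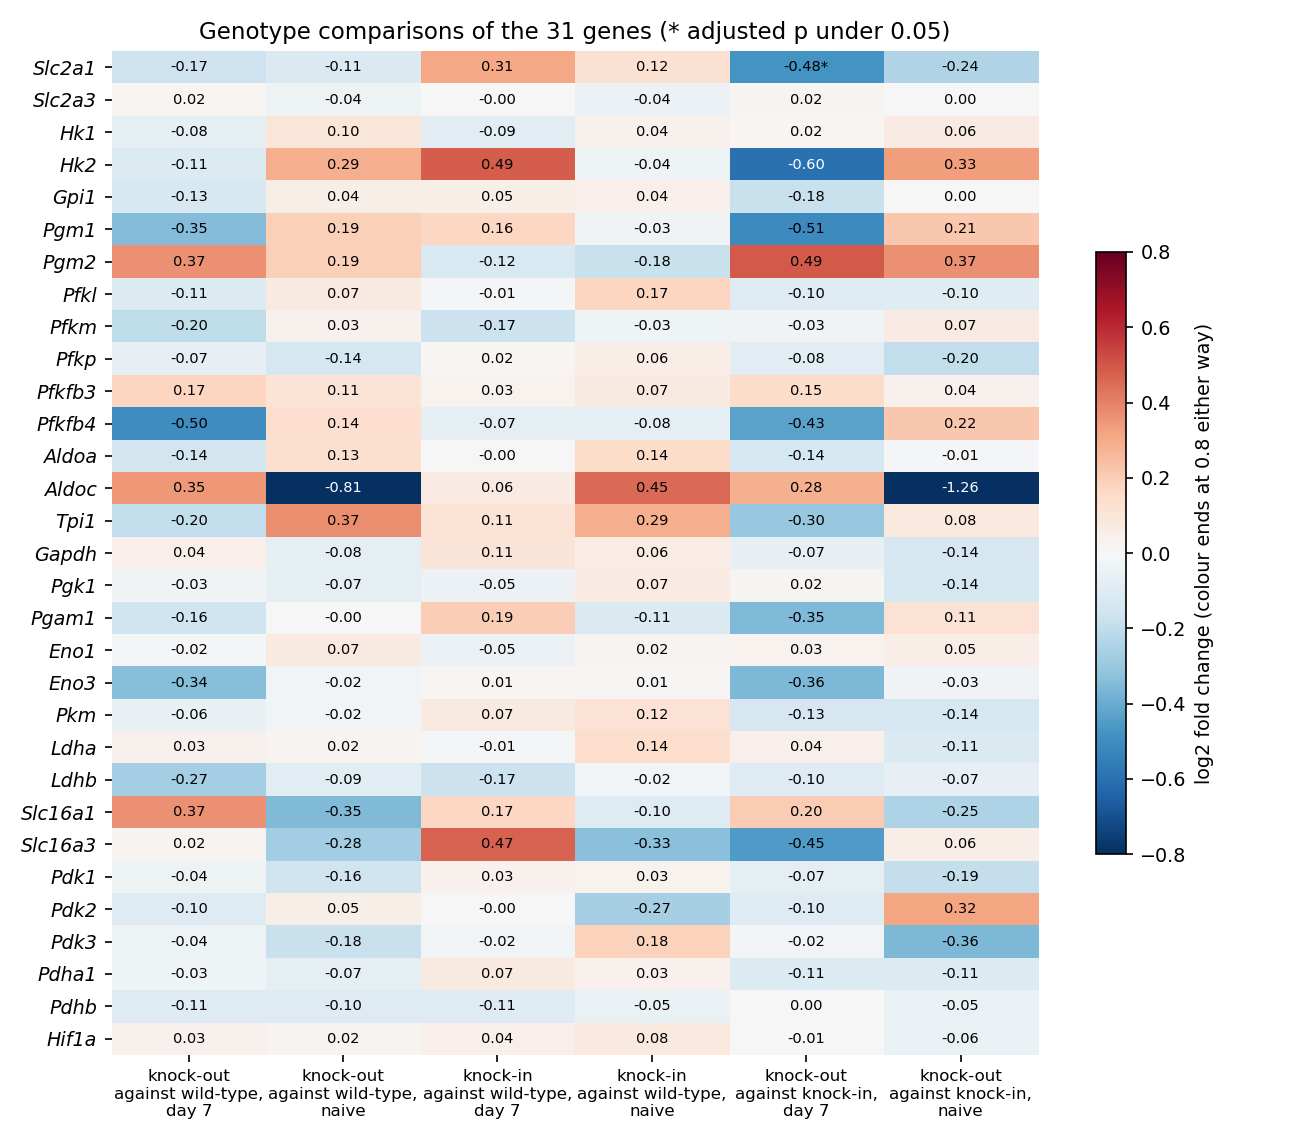
Log2 fold changes of the 31 genes (rows) in 6 genotype comparisons (columns), printed in each cell and shown by colour, which ends at 0.8 in either direction. A star marks an adjusted p under 0.05, which only Slc2a1 in day 7 knock-out against knock-in cells carries, and most other cells are pale.

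Groups did not overlap for few genes. In day 7 knock-out against wild-type cells this was 1 of 31 downwards, Aldoa, against 0.945% of all tested genes, and Aldoa had 112, 101, 112 and 111 CPM in knock-out and 125, 112, 137, 114 and 115 CPM in wild-type cells. In naive cells Aldoa was the 1 of 31 upwards, against 2.54%, with 117, 112, 107 and 110.1 CPM in knock-out and 100.5, 106, 97.05 and 105 CPM in wild-type cells. Slc16a1 was the 1 of 31 downwards in naive knock-out cells, against 2.18%. The direction of Aldoa thus differed between the stages, and its adjusted p were 0.532 at day 7 and 0.727 in naive cells. Knock-in cells were above wild-type for Aldoa in naive cells (1 of 31, against 1.82%) and for Slc2a1 at day 7 (1 of 31, against 0.809%). Slc2a1 had 27.8, 29.6, 29.6 and 25.9 CPM in day 7 knock-in and 25.2, 20.1, 22.1, 22.2 and 23.7 CPM in day 7 wild-type cells, a log2 fold change of 0.31 (SE 0.10, adjusted p = 0.949).

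Whether the step to day 7 differed by genotype was tested as an interaction, the day 7 against naive difference in knock-out or knock-in cells minus that in wild-type cells. For the knock-out, 0 of 31 genes were called, with 0% of all tested genes called, and 4 of 31 had an unadjusted p under 0.05, against 7.79%. For the knock-in, it was 0 of 31, with 0% called, and 0 of 31 at an unadjusted p under 0.05, against 3.80%. DESeq2 and limma voom called 0 in both. The smallest p of the list belonged to Slc16a1 (ENSMUSG00000032902, chromosome 3, 104638668 to 104658462, plus strand), which carries lactate in either direction and is named after its values were seen. It had 17.5, 21.9, 20.8 and 18.01 CPM in day 7 knock-out cells, against 14.2, 15.1, 15.8 and 15.4 CPM in naive knock-out cells, with no overlap. In the wild type Slc16a1 had 12.1, 11.8, 16.1, 17.3 and 17.7 CPM at day 7 and 21.04, 16.5, 19.6 and 19.8 CPM when naive, with 3 of 5 day 7 libraries below the naive range. The knock-in libraries had 18.3, 15.5, 17.03 and 17.03 CPM at day 7 and 17.8, 18.05, 18.3 and 17.3 CPM when naive. The log2 fold changes were 0.37 (adjusted p = 0.153) in knock-out and -0.35 (adjusted p = 0.126) in wild-type cells, and their difference was 0.72 (SE 0.17, unadjusted p = 0.000186, adjusted p = 0.438), which did not pass. The other 3 were Aldoa at -0.27 (adjusted p = 0.543), Pgm1 at -0.54 (adjusted p = 0.548) and Pfkfb4 at -0.63 (adjusted p = 0.581). The intervals are wide here, and only 16 of the 31 lay within 0.5 of 0 on the log2 scale for the knock-out and 19 for the knock-in interaction.

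Knock-out and knock-in cells were compared directly after the values had been seen. Slc2a1 was lower in knock-out cells at day 7, and no other gene of the list passed. The count at day 7 was 1 of 31, against 0.374% of all tested genes, and 1 of 31 lower, against 0.238%. At an unadjusted p under 0.05 there were 5 of 31, against 11.2%. In naive cells 0 of 31 were called, against 0.163% of all tested genes, 7 of 31 had an unadjusted p under 0.05, against 9.0%, and DESeq2 and limma voom called 0.

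Slc2a1 (ENSMUSG00000028645, chromosome 4, 119108711 to 119137983, plus strand) had 17.4, 21.6, 22.2 and 19.9 CPM in day 7 knock-out and 27.8, 29.6, 29.6 and 25.9 CPM in day 7 knock-in cells. In naive cells it had 19.9, 23.4, 20.7 and 23.002 CPM in knock-out and 25.2, 27.95, 23.5 and 26.3 CPM in knock-in cells. The groups did not overlap at either stage, while the wild-type libraries, at 20.1 to 25.2 CPM at day 7 and 19.4 to 25.4 CPM when naive, overlapped the knock-out at both stages and the knock-in in naive cells only. The log2 fold change was -0.48 at day 7 (SE 0.10, 95% interval -0.69 to -0.27, adjusted p = 0.0251), and DESeq2 (0.00375) and limma voom (0.0444) called it too. In naive cells it was -0.24 (SE 0.10, adjusted p = 0.452). The day 7 call was lost with library number, in sets of 4, as a block (adjusted p = 0.126) and with only these 2 groups in the model (0.239). It was also lost without day 7 knock-out replicate 1 (0.0779) or 4 (0.0673), or day 7 knock-in replicate 1 (0.0690), 2 (0.0935) or 3 (0.0714), and held without day 7 knock-out replicate 3 (-0.53, 0.0360). Summed myeloid markers also differed between these groups, at 6.40 to 11.3 CPM in day 7 knock-out and 3.11 to 6.00 CPM in day 7 knock-in libraries, and their part in the result was not tested.

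Groups of knock-out and knock-in cells did not overlap at day 7 for 2 of 31 genes downwards (Slc2a1 and Pgm1), against 2.58% of all tested genes, and for 1 of 31 upwards (Pgm2), against 2.26%. Pgm1 (ENSMUSG00000025791, chromosome 4, 99929414 to 99987294, plus strand) had 22.1, 19.8, 11.2 and 17.5 CPM in knock-out and 24.5, 23.5, 26.6 and 25.1 CPM in knock-in cells, a log2 fold change of -0.51 (SE 0.15, adjusted p = 0.151). Pgm2 (ENSMUSG00000029171, chromosome 5, 64092950 to 64128351, plus strand) had 22.2, 17.98, 16.8 and 14.8 CPM in knock-out and 11.2, 13.8, 13.6 and 12.6 CPM in knock-in cells, a log2 fold change of 0.49 (SE 0.15, adjusted p = 0.18). The 2 phosphoglucomutases, which link glycolysis to glycogen and to nucleoside breakdown, thus lay on opposite sides, and neither passed the test, although Pgm1 was called with no filter on low counts (0.0133). In naive cells 4 of 31 did not overlap downwards (Pfkp, Slc2a1, Pkm and Slc16a1), against 3.56%. These genes are named after their values were seen.

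**Figure D5:**
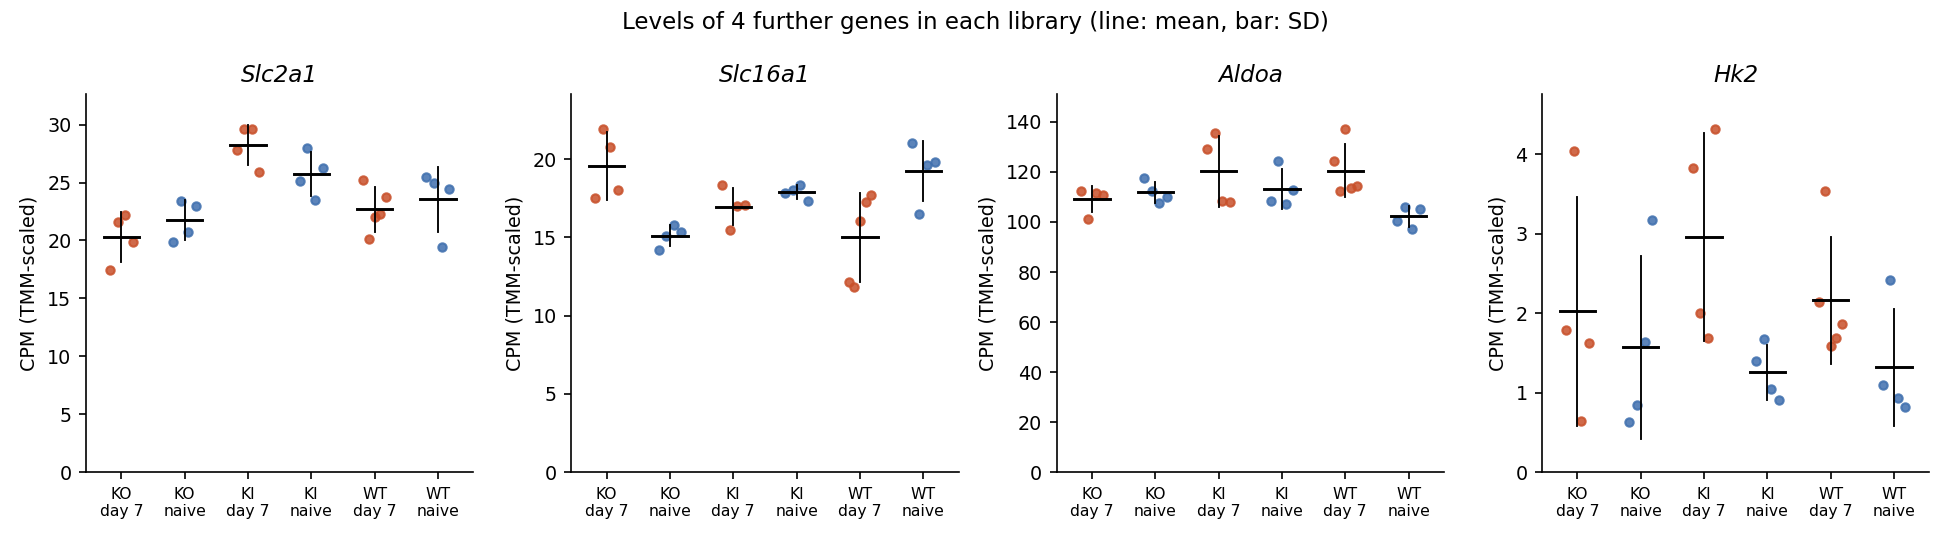
CPM (TMM-scaled) of Slc2a1, Slc16a1, Aldoa and Hk2 in each library, by genotype and stage, with day 7 left of naive. Points are libraries, the line is the group mean and the bar the SD (n = 4, and 5 for day 7 wild-type). Slc2a1 averages 20.3 CPM in day 7 knock-out, 28.2 CPM in day 7 knock-in and 22.7 CPM in day 7 wild-type cells, and Slc16a1 averages 19.6 CPM in day 7 and 15.1 CPM in naive knock-out cells against 11.8 to 17.7 CPM in the day 7 and 16.5 to 21.04 CPM in the naive wild-type libraries.

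Other genes around the pathway were read from lists chosen for this work, 72 of whose 86 genes were tested. None was called in day 7 against naive cells of a single genotype or in a genotype comparison, and calls came only from the mean of the 3 genotypes, where 11.2% of all tested genes were called. Of 15 tested other isozymes and regulators, 1 was higher and 1 lower, and of 9 genes of mitochondrial pyruvate entry and 7 of the pentose phosphate pathway none was called. Changes of these genes are given as log2 fold changes of the mean of the 3 genotypes. Among 19 genes of the hypoxia-inducible factor pathway 2 were higher and 2 lower. Among 14 genes of Myc, mTORC1 and other regulators of glucose use 2 were higher, and among 8 T cell activation genes 3 were higher.

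Vegfa, the vascular growth factor and a textbook target of Hif1a, rose with a mean log2 fold change of 1.69 (SE 0.30, adjusted p = 0.000407). It had 1.91, 2.16, 0.31 and 2.76 CPM in day 7 knock-out cells, against 1.18, 0.425, 0.377 and 0.405 CPM in naive knock-out cells. In knock-in cells Vegfa had 3.73, 3.23, 2.80 and 3.03 CPM at day 7 and 1.04, 0.878, 1.13 and 0.911 CPM when naive, with no overlap. In the wild type Vegfa had 0.836, 1.08, 2.87, 3.63 and 2.89 CPM at day 7 and 0.628, 0.806, 0.471 and 0.516 CPM when naive, with no overlap either. These are low levels, and replicate 3 of day 7 knock-out was below all its naive libraries. Of all tested genes, 4.70% in knock-in and 2.94% in wild-type cells were higher at day 7 without overlap. Egln3, a prolyl hydroxylase that marks Hif1a for breakdown and is itself induced by it, rose by 1.17 (SE 0.30, adjusted p = 0.012), which limma voom did not call (0.0754). Hif1an, an asparagine hydroxylase that inhibits Hif1a, fell, with -0.16 (SE 0.046, adjusted p = 0.0211), and was not called once library number entered as a block (0.0516). The other gene of this list called lower was Kdm3a, at -0.13 (adjusted p = 0.0441). Its call held in 8 of the 25 fits that left out 1 library. Of the 19 tested genes of the list, 10 had a positive and 9 a negative mean fold change, with a median of 0.0020.

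Slc2a9, a urate transporter of the glucose carrier family, fell in the mean of the 3 genotypes, with -0.26 (SE 0.061, adjusted p = 0.00463). It had 17.9, 17.1, 14.4 and 20.8 CPM in day 7 knock-out cells, against 19.4, 21.4, 19.3 and 19.4 CPM in naive knock-out cells. Knock-in libraries had 15.3, 20.2, 18.4 and 20.7 CPM at day 7 and 21.6, 21.8, 23.6 and 23.4 CPM when naive, and wild-type libraries 16.98, 17.5, 17.2, 20.1 and 18.2 CPM at day 7 and 21.4, 23.4, 22.3 and 23.1 CPM when naive. The knock-out groups overlapped, and in knock-in and wild-type cells all day 7 libraries were below the naive ones. Of all tested genes, 6.33% in knock-in and 2.92% in wild-type cells were lower at day 7 without overlap. Gapdhs, the isozyme of sperm, was called higher at 1.83 (SE 0.50, adjusted p = 0.0169), with at most 1.46 CPM in any library. Myc, which drives glycolysis in activated T cells, rose by 0.17 (SE 0.055, adjusted p = 0.0429), with 64.5 ± 6.47, 72.3 ± 4.45 and 64.6 ± 6.89 CPM at day 7 and 59.3 ± 6.31, 60.9 ± 5.43 and 58.6 ± 6.94 CPM when naive in knock-out, knock-in and wild-type cells (SD, n = 4, and 5 for day 7 wild-type). The Myc call was lost with limma voom (0.0580), with library number as a covariate (0.0517), with the block (0.0639) and in 12 of the 25 fits that left out 1 library. Akt2, a kinase of insulin signalling, rose by 0.13 (SE 0.043, adjusted p = 0.0461) and was not called in 17 of those 25 fits, with no filter on low counts (0.145), with library number as a covariate (0.0582) or with the block (0.0913).

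Among the activation genes, Mki67 and Top2a, genes of dividing cells, rose by 1.27 (SE 0.32, adjusted p = 0.00892) and 1.03 (SE 0.26, adjusted p = 0.00932), and the costimulator Icos rose by 0.54 (SE 0.13, adjusted p = 0.00701). Of the 8 activation genes, 6 had a positive and 2 a negative mean fold change, with a median of 0.20. In knock-out, knock-in and wild-type cells, Cd44 averaged 47.7, 49.2 and 47.8 CPM at day 7. When naive it averaged 45.6, 42.3 and 46.2 CPM. Cd69 averaged 50.6, 45.4 and 55.3 CPM at day 7 and 44.1, 49.4 and 41.5 CPM when naive. For both genes the stages overlapped in each genotype. The Mki67 call was lost with the block (0.0594). Mki67 was highest in replicates of 2 groups, at 61.7, 246, 60.1 and 51.9 CPM in day 7 knock-out and 205.6, 39.7, 45.1 and 123 CPM in day 7 knock-in cells, against 95.3, 95.4, 95.5, 13.6 and 74.2 CPM in day 7 wild-type cells. The knock-in library with 205.6 CPM, replicate 1, had the highest median deviation of the 31 glycolysis genes from their mean over all libraries, 0.13 on the log2 scale. The library with the most Mki67, day 7 knock-out replicate 2, had a median deviation of -0.052. Without knock-in replicate 1 at day 7, of the 4 calls in the mean of the 3 genotypes only Pdk1 remained.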

How the data were processed

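Total RNA of sorted CD4 T cells was prepared with the miRNeasy Mini kit, made into libraries with a stranded total RNA kit (SMARTer Pico) and sequenced as 150-base read pairs on an Illumina NovaSeq, per the labels' protocols. The authors deposited 1 table of raw counts per gene. The submitters' processing notes name mm10 and DESeq2; the aligner, counter, annotation and strand setting are not given in the sources used here. Gene IDs were matched to GENCODE M21, and 45143 of 46078 had a symbol. All rows named a gene.

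Groups came from the genotype and stage labels. Genes were kept by filterByExpr (minimum count 10, minimum total 15), which left 14703, and were scaled by TMM and fitted with edgeR 4.0.16 (R 4.3.3) by the quasi-likelihood test over 6 groups and all 25 libraries, so that the groups share the estimate of spread. Adjusted p are Benjamini-Hochberg values over all tested genes, with a threshold of 0.05 and two-sided tests. Total counts of 6024043 to 49489134 per library limit the precision of low genes. Alternatives were DESeq2 1.42.0, limma voom (limma 3.58.1) with quality weights, DESeq2's size factors in edgeR, no filter on low counts, a stricter one (5 CPM in 4 libraries or more), only the groups compared, the table without genes of mitochondria, ribosomal RNA and haemoglobin, a covariate for library number, a block on library numbers in sets of 4, and leaving out each library in turn. The statistics were tested on simulated counts, with 200 changed genes drawn from all tested genes. For day 7 against naive wild-type cells, 6% of 1.2-fold and 44% of 1.5-fold changes were called. For the mean of the 3 genotypes these were 28% and 68%, and for day 7 knock-out against wild-type cells 6% and 56%. Of 2-fold changes 64%, 78% and 50% were called in these 3 comparisons, and of 4-fold changes 84%, 98% and 80%. Each rate rests on 50 genes, and the last comparison had a lower rate at 2-fold than at 1.5-fold. Small changes, and some large ones, can therefore be missed, above all outside the mean of the 3 genotypes. The median coefficient of variation was 18.1% for all tested genes and 11.8% for the glycolysis genes, for which no separate rates were computed. Copies were sought with BLAST 2.17.0 (95% identity over 200 bases).

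The 31 genes, the related lists and the rule for named genes were chosen with earlier results of these data known. The rule gives values in every library for genes of the list called in any comparison and for Slc2a1, Slc2a3, Hk1, Hk2, Pkm, Ldha, Hif1a and Slc16a3, and fold changes for up to 3 called genes of each related list. Values of other genes were chosen after they were seen, and the comparison of knock-out with knock-in cells was added after seeing the data.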

Additional observations from a re-analysis of the deposited data

Results flagged for a closer look

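In each of the 186 sets formed by a gene and a group, the highest and lowest library were compared with the rest by Dixon's criterion, and 1 library stood apart in 15. Chance gives about 1 in 20 sets.

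Among day 7 knock-out libraries, replicate 3, the deepest library and the one with the highest share of ribosomal RNA genes, was low for both subunits of the pyruvate dehydrogenase complex. Pdha1 had 83.277 CPM there against 105.326 to 107.656 CPM in the other 3 libraries, and Pdhb had 20.753 CPM against 27.147 to 27.855 CPM. The part of depth and of ribosomal RNA in these values was not tested. Aldoa was low in replicate 2 of the group, at 101.372 CPM against 110.855 to 112.292 CPM.

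Among day 7 wild-type libraries, replicate 4 was low for Gapdh, with 88.182 CPM against 111.453 to 120.195 CPM, and high for Pdk3, with 16.756 CPM against 12.958 to 13.833 CPM. Hk2 was high in replicate 2, at 3.535 CPM against 1.588 to 2.142 CPM. Pgm1 was high in replicate 3, at 24.754 CPM against 21.057 to 22.049 CPM, and Pgm2 was low in replicate 1, at 10.607 CPM against 13.833 to 15.149 CPM.

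Among naive knock-out libraries, Tpi1 was low in replicate 2, with 4.038 CPM against 7.918 to 8.671 CPM, and Ldha was low in replicate 1, with 128.699 CPM against 144.407 to 146.871 CPM. Replicate 3 of the naive knock-in group was high for Ldhb, at 17.416 CPM against 13.496 to 13.593 CPM, and for Pdk2, at 8.219 CPM against 5.465 to 5.704 CPM. It was low for Aldoc, at 0.378 CPM against 1.018 to 1.118 CPM. Replicate 3 of the naive wild-type group was low for Slc2a1, with 19.409 CPM against 24.436 to 25.432 CPM, and high for Eno3, the muscle enolase, with 8.469 CPM against 6.805 to 7.065 CPM.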

How the results depend on the processing

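The labels give the groups no shared replicate numbers, so the main fit was not paired. Several naive and day 7 libraries of the same genotype carry consecutive library numbers. A block on library numbers in sets of 4, which the labels do not call pairs, was fitted as an alternative. The count of called glycolysis genes stayed at 0 in knock-out cells at day 7, in the 4 comparisons with wild-type cells, in both interactions and in naive knock-out against knock-in cells, under every alternative and every left-out library. In knock-in cells at day 7 it was 1 with limma voom and 1 with no filter on low counts, and in wild-type cells 1 with DESeq2, 1 with limma voom and 1 with no filter, each against 0. These calls were Pdk1, apart from Aldoa with DESeq2. For wild-type cells it ran from 0 to 1 over the fits without 1 library, with 1 without day 7 replicate 4. For the mean of the 3 genotypes it was 3 to 5 over the alternatives, against 4, and 1 to 5 without 1 library, with 1 (Pdk1) without day 7 knock-in replicate 1 and 2 without day 7 knock-out replicate 2, naive knock-in replicate 3 or naive wild-type replicate 3 or 4. In day 7 knock-out against knock-in cells it was 2 with no filter, 0 with the block on library numbers, 0 with only the groups compared and 0 to 1 without 1 library, against 1. The cause was not tested.

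The mean log2 fold change of Slc2a1 by day 7, -0.0028, turned to 0.0038 with DESeq2's size factors in edgeR, 0.0080 with DESeq2, 0.0098 with the stricter filter and 0.0052 without mitochondrial, ribosomal RNA and haemoglobin genes, and ran from -0.031 to 0.020 without 1 library. Leaving out 1 library also turned the sign of Hk2 in knock-out cells (-0.27 to 0.94) and, in knock-in cells, of Pkm (-0.021 to 0.14), Ldha (-0.098 to 0.0064) and Hif1a (-0.098 to 0.13). With the block on library numbers, Slc2a3 (adjusted p = 0.0293), Pdk1 (0.00799), Gapdh (0.0277) and Eno1 (0.0331) were called.

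The number of all tested genes called moved by over 1.5 times in 11 of the 12 comparisons, for instance from 16 to 540, against 60, in knock-out cells at day 7, and stayed within 1253 to 1987, against 1649, for the mean of the 3 genotypes. Depth limits Hk2 and Slc16a3, which had as few as 6 counts in a library, and Aldoc, which had as few as 1.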
